A study of Drosophila melanogaster with 6 samples.

Results

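The 10 genes described here belong to the IMD (immune deficiency) pathway of Drosophila melanogaster, and their chromatin was assayed by ATAC-seq, which uses Tn5 transposase to insert sequencing adapters into accessible DNA. The genes were taken from a named list: 6 receptors and regulators (PGRP-LC, PGRP-LF, PGRP-LE, PGRP-LB, Rel and pirk) and 4 antimicrobial peptide genes (DptA, DptB, AttA and Mtk). No measured value was used to select them, but the list was chosen with earlier results of these data known. They are 10 of 13946 protein-coding genes on the placed chromosomes. A locus here means a gene with its 2 kb flanks, and any peak that overlapped it by 1 bp or more was counted, which gave 76 of the 49268 deposited peaks. The cells were GFP-positive midgut progenitors, intestinal stem cells and enteroblasts, which were sorted from females. Controls (genotype esgts, UAS-GFP) and H1 RNAi flies (esgts, UAS-GFP with UAS H1 RNAi 1, a transgene against the linker histone H1) had 3 samples each, named A, B and C. All flies carried the esgts driver and the GFP transgene, were 3 days old at first, spent 2 days at 18 °C and then 4 days at 29 °C on poor food, and each sample pooled 70 guts. The driver acts in progenitors, so RNAi was induced in these cells. Peak lists hold no RNA levels, so the knock-down of H1 was not checked here, and GFP sorting cannot separate stem cells from enteroblasts.

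The IMD pathway senses the peptidoglycan of Gram-negative and some Gram-positive bacteria. PGRP receptors bind peptidoglycan at the cell surface or in the cytosol, a signalling complex around the adaptor Imd activates the caspase Dredd and the IKK kinase complex, and the NF-kappaB factor Relish enters the nucleus and switches on antimicrobial peptide genes. In the gut, negative regulators such as the amidase PGRP-LB and the inhibitor Pirk keep this response low towards resident bacteria.

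The 6 peak lists held between 6142 and 10872 peaks. Control B was the longest list and had the highest genome-wide background (20.7 fragments per base, against 4.83 to 10.1 in the other 5 libraries). At the genome-wide background of its own list, a peak was listed from a fold enrichment of 1.75 upwards in control B. In control A, with a background of 5.04 fragments per base, it was listed from 2.65 upwards. A locus without a peak is therefore one without enrichment detectable at that depth. As a check of the label, all 5 progenitor marker loci (esg, Delta, N, Sox21a and Sox100B) had a peak in each sample, against 0 to 1 of 4 visceral muscle loci, 0 to 2 of 5 fat body loci and 1 to 3 of 4 hemocyte loci. Of the gut cell types that descend from progenitors, 4 to 5 of 6 enterocyte loci and 1 to 3 of 5 enteroendocrine loci had a peak, and a peak at a marker gene is not a measure of its expression. The share of all protein-coding genes with a locus peak in all 6 samples was 35.9%, and long genes have larger loci. Within 500 bp of a gene end, 5 of 5 progenitor genes had a peak in each control and in H1 RNAi B, and 4 in H1 RNAi A and C. There it was 3 to 4 of 6 enterocyte, 0 to 2 of 5 enteroendocrine, 0 to 1 of 4 visceral muscle, 0 to 2 of 5 fat body and 0 to 2 of 4 hemocyte genes.

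Every receptor and regulator locus held a called peak in every sample and the peptide loci largely held none, in controls and in H1 RNAi alike. Each of the 6 receptor and regulator loci held a peak in 3 of 3 controls and 3 of 3 H1 RNAi samples. The loci of DptA, DptB and AttA held 0 peaks in each of the 6 samples, and that of Mtk held 1 peak in control B and 1 in H1 RNAi C. Over all protein-coding genes 35.9% had a peak in the locus in all 6 samples and 28.8% had none in any. The share of receptor and regulator loci with a peak thus exceeded that of peptide loci by 100 percentage points in 4 samples and by 75 points in control B and H1 RNAi C.

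**Figure D1:**
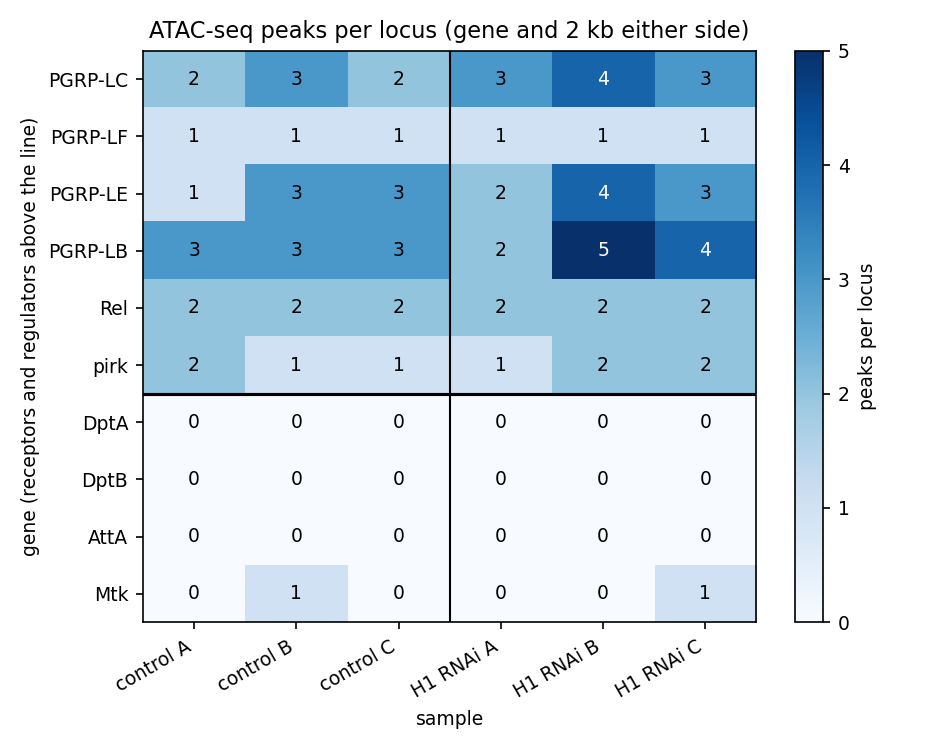
Number of ATAC-seq peaks (cell values and colour) overlapping each member locus (rows, gene and 2 kb on either side) in each sample (columns). The receptors and regulators above the thick line have 1 to 5 peaks in every sample, and the peptide genes below it have 0 except for 1 peak at Mtk in control B and in H1 RNAi C.

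Gene length differs between the classes and bears on this count. The receptor and regulator genes are 1881 to 9527 bp long and the peptide genes 268 to 854 bp, so the loci differ in size. Among protein-coding genes over 1000 bp, 40.7% had a locus peak in all 6 samples and 22.9% in none. Among those of at most 1000 bp the shares were 16.1% and 53.5%, so a peptide locus without a peak had the commonest state for genes of its length. Within 500 bp on either side of both gene ends, 5 of 6 receptors and regulators had a peak in all 6 samples and 3 of 4 peptide genes had none in any. These windows still depend on length, since those of a gene under 1000 bp overlap each other. A gene-end peak in all 6 samples was found for 22.3% of all protein-coding genes, for 25.8% of those over 1000 bp and for 7.88% of the shorter ones. No gene-end peak in any sample was found for 43.2%, 37.1% and 68.8% of these, so the 3 of 4 peptide genes lie near the share for their length. At PGRP-LB the edge of the H1 RNAi peaks lay only just inside this window. The receptor or regulator without a gene-end peak was PGRP-LC, whose peaks lay deep inside the gene or beyond both windows.

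PGRP-LC encodes the transmembrane receptor of the pathway (chromosome 3L, 9338810 to 9348336 in dm6). Its locus held 2, 3 and 2 peaks in controls A, B and C and 3, 4 and 3 in H1 RNAi A, B and C. The H1 RNAi counts were the higher ones on average, but control B, H1 RNAi A and H1 RNAi C had the same number. In H1 RNAi B the internal site was split into 2 peaks. The main site lay inside the gene (3L, 9340318 to 9341696), where the strongest summits of the 6 samples fell 2243 to 2391 bp from the lower-coordinate end. This region was called in all 6 samples, and its strongest peak stood between percentiles 71.9 and 94.1 of its own list when peaks were ranked by the authors' −log10 q.

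A site inside the near end of the neighbour PGRP-LA, another PGRP family gene that lies 473 bp from PGRP-LC, was less evenly called. The region (3L, 9337978 to 9338285) had a peak in control B and in all 3 H1 RNAi samples, but not in control A or C. Its percentile ranged from 29.7 in H1 RNAi A to 67.5 in H1 RNAi C. Control B, where background was highest, was the only control with this peak, and without control B the site had peaks in the 3 H1 RNAi samples and in neither of the remaining controls. With all lists shortened to their top 6142 peaks it also lost the peak of control B, which left the 3 H1 RNAi samples. A single site cannot pass a test at 0.05 with 3 samples against 3.

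PGRP-LF, whose product binds PGRP-LC and holds signalling down, lies 1272 bp further along (3L, 9349609 to 9351489). Its locus held exactly 1 peak in each of the 6 samples. That peak also falls within 2 kb of PGRP-LC and is counted for both genes. It spans the lower-coordinate end of PGRP-LF (region 9349125 to 9350099), with summits just outside the gene, at −82, −83 and −82 bp from that end in controls A, B and C and at −79, −24 and −7 bp in H1 RNAi A, B and C. The summit thus lay nearer the gene in each H1 RNAi sample, in A by a few bases. The peak's percentile was 68.8, 90.2 and 81.5 in controls A, B and C and 76.2, 84.2 and 66.8 in H1 RNAi A, B and C, each within its own list.

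PGRP-LE encodes an intracellular receptor that senses peptidoglycan fragments (X, 15801153 to 15803880), and it was the one gene of the 6 without a gene-body peak in every sample. Its locus held 1, 3 and 3 peaks in controls and 2, 4 and 3 in H1 RNAi samples A, B and C. The strongest region (X, 15803485 to 15805111) was called in all 6 samples, with summits 393 to 488 bp past the gene, in the 489 bp gap before sd, which encodes the TEAD factor of the Hippo pathway. Which gene this site serves cannot be told from peaks. Inside the gene a weaker region (15802735 to 15803056) was called in control B, control C and H1 RNAi B. Over the gene body alone, PGRP-LE thus had a peak in 3 of 6 samples.

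Further regions near PGRP-LE were called in part of the samples. One at the ends of sordd2 and CG15602, with summits −1910 to −1661 bp from the lower end of PGRP-LE (region 15799120 to 15799577), was called in 2 controls and 3 H1 RNAi samples and was missing from control A. With lists of equal length its peaks in controls B and C were lost and those of the 3 H1 RNAi samples were kept. Another (15805127 to 15805287, within sd) was called in H1 RNAi B and C at percentiles 1.68 and 8.32 and in no control. The wide peak of control C over the region before sd ended just short of it.

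**Figure D2:**
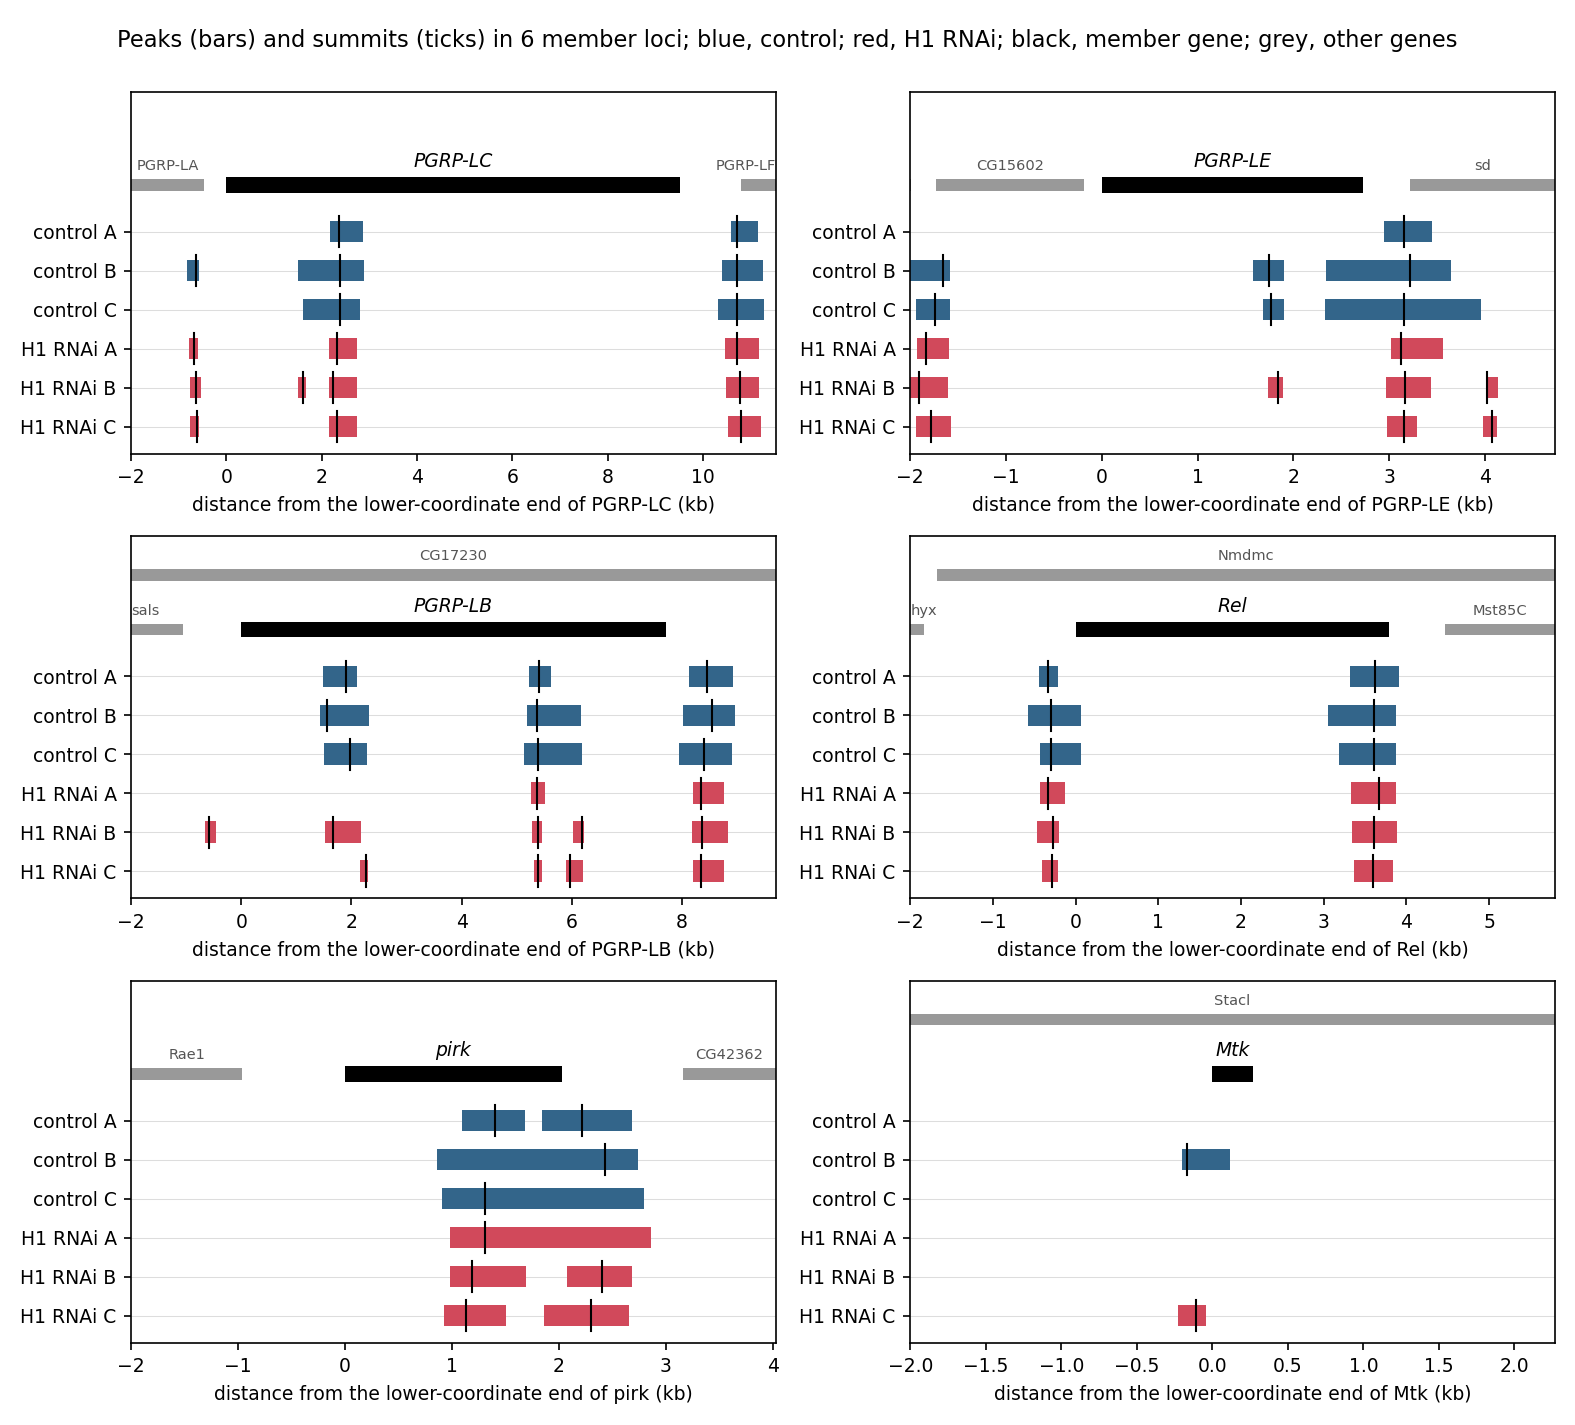
Peaks (bars) and their summits (ticks) of each sample in 6 member loci, by distance in kb from the lower-coordinate end of the gene, with the member gene in black and other protein-coding genes in grey above. The same positions recur in controls (blue) and H1 RNAi samples (red), with wider bars in controls B and C, and Mtk has a peak in control B and H1 RNAi C alone. The panel of PGRP-LC also shows the peak at PGRP-LF, and DptA, DptB and AttA have no peak to draw.

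Among regulators, PGRP-LB had the site that ranked highest among members in each list. It encodes an amidase that cleaves peptidoglycan and so dampens the response (3R, 11452849 to 11460552). Its locus held 3 peaks in each control and 2, 5 and 4 peaks in H1 RNAi A, B and C, so the H1 RNAi samples lay on either side of the controls. The strongest region (3R, 11460794 to 11461809) was called in all 6 samples just past the higher-coordinate end, with summits 750, 836 and 697 bp outside the gene in controls A, B and C and 652, 654 and 644 bp outside it in H1 RNAi A, B and C. The summit was nearer the gene in each H1 RNAi sample than in any control. Its peak stood at percentile 96.5, 96.8 and 99.3 in controls A, B and C and at 96.7, 96.8 and 95.8 in H1 RNAi A, B and C. The authors' fold enrichment there ran from 4.96 in control B to 9.36 in H1 RNAi B. PGRP-LB and its flanks lie within the longer gene CG17230, so this site is also inside CG17230.

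PGRP-LB also had internal sites. The region at 11457981 to 11459076 was called in all 6 samples, with the strongest summits within 33 bp of each other (5370 to 5403 bp from the lower-coordinate end, with the groups overlapping). Controls B and C covered it with a single peak, whereas H1 RNAi B and C split it into separate peaks, which raised their counts. Control A and H1 RNAi A had 1 peak each there, of 400 and 263 bp. The region at 11454286 to 11455168 was called in all 3 controls, in H1 RNAi B and in H1 RNAi C, and not in H1 RNAi A. The summits in it were 717 bp apart at most, and peaks covered 628, 883 and 791 bp of it in controls A, B and C, 656 bp in H1 RNAi B and 149 bp in H1 RNAi C. A further region outside the lower end was called in H1 RNAi B alone (11452192 to 11452387), at percentile 0.422, near the bottom of that list.

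Rel encodes Relish, the NF-kappaB factor at the end of the pathway (3R, 9044183 to 9047977). Its locus held exactly 2 peaks in each of the 6 samples, 1 at either end. At the lower-coordinate end (region 9043608 to 9044249) summits fell outside the gene, −337 to −271 bp from that end. At the higher-coordinate end (region 9047238 to 9048090) they fell inside it, 3596 to 3663 bp from the lower-coordinate end. The latter ranked higher in each list, at percentile 63.3, 94 and 79.7 in controls A, B and C and 87.8, 89.4 and 65.1 in H1 RNAi A, B and C. Rel lies inside Nmdmc, a gene of mitochondrial folate metabolism, and its ends are the only annotated protein-coding gene ends within 500 bp of these regions.

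The gene pirk, whose product removes PGRP-LC from the cell surface, had a broad site over its higher-coordinate end (2R, 21660967 to 21662995). Control A, H1 RNAi B and H1 RNAi C had 2 peaks each, and control B, control C and H1 RNAi A had 1 wide peak over the same stretch (region 21661828 to 21663832). Called length in this region was 1441, 1877 and 1897 bp in controls A, B and C and 1880, 1323 and 1381 bp in H1 RNAi A, B and C. Where peaks were split, 1 summit lay inside the gene, 1129 to 1401 bp from the lower-coordinate end, and the other 188 to 378 bp past the higher-coordinate end, where the annotation has the non-coding gene lncRNA:CR44748. The counts of 1 and 2 peaks at pirk thus describe the same stretch, called whole or in pieces in samples of both groups.

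**Figure D3:**
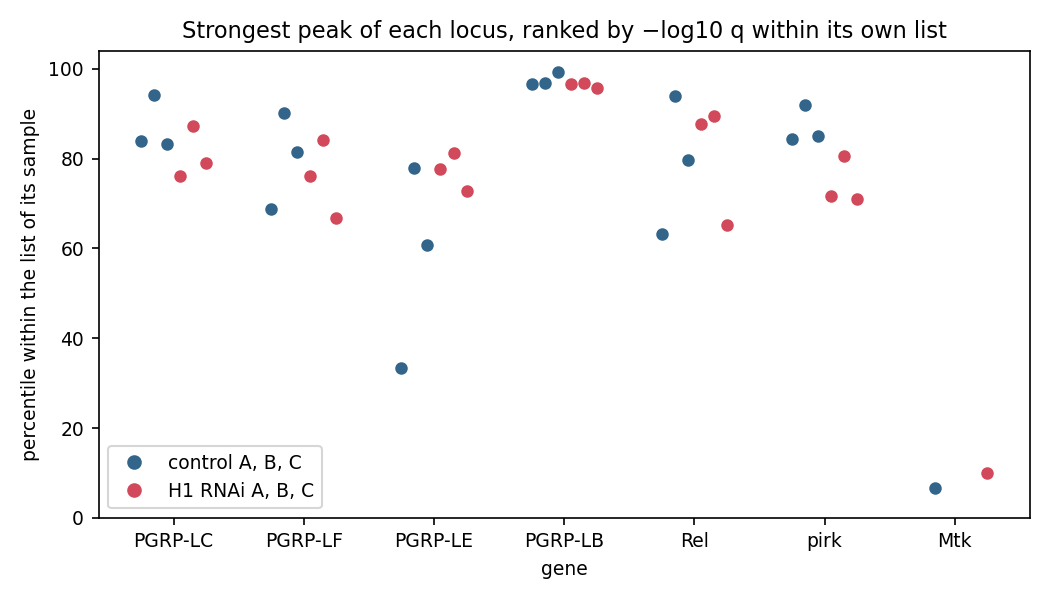
Percentile of the strongest peak of each locus within the list of its own sample, by −log10 q, for the 7 members with a peak (points, 1 per sample; blue, control; red, H1 RNAi). PGRP-LB stands at 95.8 or above in all 6 lists, and the peaks at Mtk stand at 6.67 and 10. Lists differ in length, so the ranks describe each list and are not compared between groups.

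The peptide genes are the outputs of the pathway. DptA and DptB encode diptericins, active against Gram-negative bacteria, and lie 1130 bp apart (2R, 18865765 to 18866260 and 18867391 to 18867895), so that their loci overlap and are not independent. Neither locus held a peak in any sample. The nearest peak lay 7731, 3571 and 3061 bp from DptA in controls A, B and C and 3200, 3054 and 3013 bp in H1 RNAi A, B and C. In 5 of 6 samples that peak was near an end of Jheh3, a juvenile hormone epoxide hydrolase gene, or of CG43069, and in control A it was at Jheh2. For DptB the nearest peak was the same one in each sample, at 4639 to 9357 bp.

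AttA encodes an attacin (2R, 14747362 to 14748215) and has the peptide genes Dro and AttB within 2 kb. Its locus held no peak in any sample. The nearest peak lay 4046, 3812 and 3822 bp away in controls A, B and C and 3928, 4024 and 4132 bp away in H1 RNAi A, B and C. It overlapped the proteasome subunit gene Rpn6 in all 6 samples, close to the end that Rpn6 shares with ave. The groups overlapped in this distance.

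Mtk encodes metchnikowin (2R, 15408846 to 15409113) and lies inside the long gene Stacl. It was the peptide gene with a peak, in control B (15408648 to 15408965) and H1 RNAi C (15408618 to 15408801). The former overlapped the gene and the latter ended 45 bp before it. Both peaks were weak: they stood at percentile 6.67 and 10 of their lists, with a fold enrichment of 2.03 and 2.75. In terms of fragments, coverage at the summit was 43 over a background of 20.7 in control B and 25 over 8.44 in H1 RNAi C. When peaks with a −log10 q under 10 or those enriched less than 4-fold were dropped, or lists were brought to equal length, the Mtk locus held no peak in any sample. In the 4 other samples the nearest peak was 15289 to 27399 bp away.

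**Figure D4:**
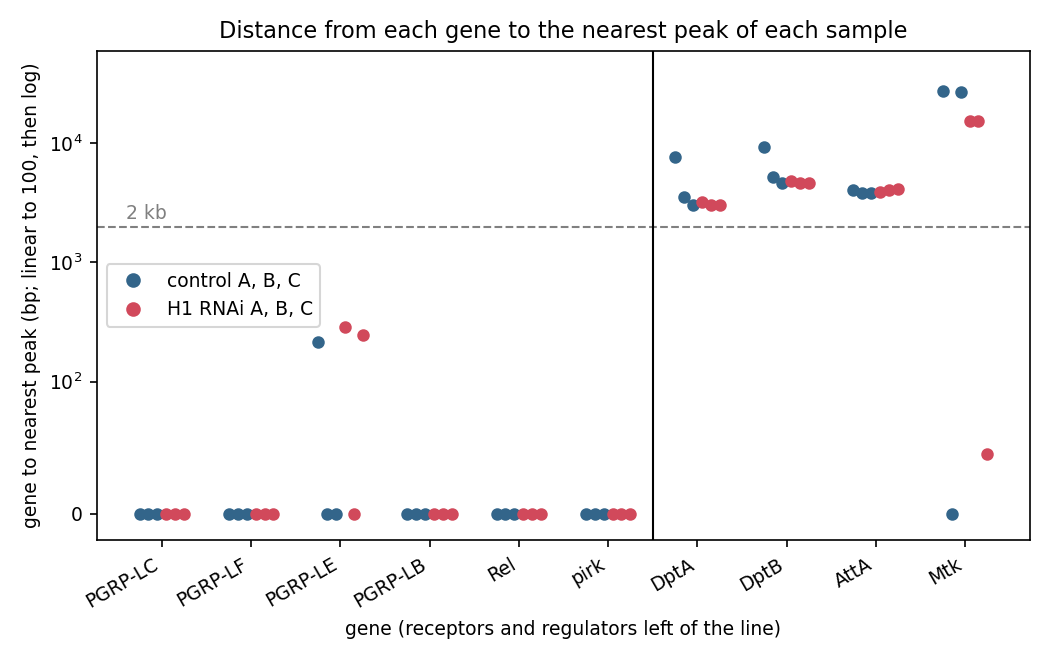
Distance in bp from each member gene to the nearest peak of each sample (points; blue, control; red, H1 RNAi; 0 where a peak overlaps the gene; the axis is linear to 100 bp and logarithmic above). The receptors and regulators lie at 0 to 287 bp, and DptA, DptB and AttA at 3013 bp or more in all 6 samples, beyond the dashed line at 2 kb.

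Over the 10 members, the number of accessible loci had the same mean in control and H1 RNAi samples. There were 6, 7 and 6 loci with a peak in controls A, B and C and 6, 6 and 7 in H1 RNAi A, B and C. This is 6.33 ± 0.577 loci in both groups (SD, n = 3 each; exact two-sided permutation p = 1). The receptor and regulator loci with a peak numbered 6 in each sample (exact permutation p = 1), and the peptide loci 0.333 ± 0.577 in both groups (SD, n = 3 each; exact permutation p = 1). Receptors and regulators exceeded peptide genes by 91.7 ± 14.4 percentage points in either group (SD, n = 3 each; exact permutation p = 1 for control against H1 RNAi). The excess of one class over the other was described and not tested. Members with a gene-end peak numbered 5.33 ± 0.577 in both groups (SD, n = 3 each; exact permutation p = 1). The receptor and regulator count was the same in every sample, so its test could show no difference. The other measures of this paragraph varied only with the weak Mtk peak of control B and H1 RNAi C. They are therefore not independent results. The smallest p that 3 samples against 3 can give is 0.1, so no difference could have passed 0.05, and adjusted over the 7 measures compared each exact permutation p was 1.

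The mean number and the mean extent of peaks in member loci went in opposite directions, and the samples of the groups overlapped in both. Member loci held 10, 13 and 11 peaks in controls A, B and C and 10, 17 and 15 in H1 RNAi A, B and C, with a mean of 11.3 ± 1.53 and 14 ± 3.61 (SD, n = 3 each; exact permutation p = 0.4). These were 0.163, 0.12 and 0.128% of the lists of controls A, B and C. In H1 RNAi A, B and C they were 0.152, 0.173 and 0.207%, so the groups overlapped in this share too. The lowest H1 RNAi sample equalled the lowest control, and without H1 RNAi A the difference was 4.67 peaks and the groups did not overlap (exact permutation p = 0.1). Without H1 RNAi B it was 1.17 peaks, and over the gene bodies alone it turned to −1.33. Covered length was 5.86, 11 and 10.3 kb in controls and 5.96, 6.89 and 5.73 kb in H1 RNAi samples (9.06 ± 2.8 and 6.19 ± 0.613 kb, SD, n = 3 each; exact permutation p = 0.3), of 64.189 kb in the merged member loci. Controls B and C stood above the other 4 samples, and they also had the highest background and the widest peaks, with a median width of 518 and 572 bp against 323 to 416 bp. The whole lists covered 2.75, 6.92 and 5.96 Mb in controls A, B and C and 3.35, 3.91 and 3.04 Mb in H1 RNAi A, B and C. Controls B and C thus stood above the other 4 samples there too, and this pattern is not particular to the members. Without control A the difference in covered length of member loci was −4.47 kb (exact permutation p = 0.1), and without control B it was −1.89 kb. The part of background and peak width in these differences was not tested.

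By gene, none of the 10 members had peak counts that separated the groups, and 0.688% of all protein-coding genes did. With lists of equal length 2 of the 10 did, against 1.13% of all genes: PGRP-LC had 2 peaks in each control and 3, 4 and 3 in H1 RNAi A, B and C, and PGRP-LE had 1 in each control and 2 in each H1 RNAi sample. By region, the peaks of the member loci merged into 15 distinct regions. A peak in all 6 samples was found for 8 of them, against 37% of all regions on placed chromosomes. A further 6 were called in 2 to 5 samples and 1 in a single sample. None was called in all 3 samples of one group and in no sample of the other, as 0.778% of all regions were. With lists of equal length 2 of 11 member regions were, the sites near PGRP-LC and PGRP-LE described above, against 1.34% of all regions. The separation of these genes rests on these same sites, and equal list length was among several settings tried. In 13 of 15 regions at least 1 sample of each group had a peak. The 2 exceptions were called in H1 RNAi alone, at PGRP-LE in 2 samples and at PGRP-LB in 1, both near the bottom of their lists.

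Called length per region separated the groups at some members. At the PGRP-LB site past the higher-coordinate end it was 797, 937 and 973 bp in controls A, B and C and 573, 653 and 570 bp in H1 RNAi A, B and C. At the higher-coordinate end of Rel it was 588, 825 and 693 bp in controls and 540, 555 and 474 bp in H1 RNAi samples. In both regions every control was longer than every H1 RNAi sample. This held for 2 of the 8 regions called in all 6 samples, and for 14.8% of such regions over the genome, where the reverse held for 0.0467%. The 2 of 8 stand against that share and are not particular to the members, and the median peak width of control A, 364 bp, lay within the range of the H1 RNAi lists. The strongest summit had a median range over the 6 samples of 85.5 bp in these 8 regions and of 133 bp in the 4281 such regions of the placed chromosomes. The range was 192 bp at the site past PGRP-LB and 1124 bp at pirk, where the strongest summit lay inside the gene in control C and H1 RNAi A and past its end in the other 4 samples. In 3 of the 8, namely the internal site of PGRP-LC, the peak at PGRP-LF and the site past PGRP-LB, the summits of the groups did not overlap, as in 13.4% of such regions over the genome, and 8 regions are few to set against that share. The group medians were 70, 58 and 98 bp apart there, less than the width of any of these peaks.

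The rest of the pathway was counted over a list of 39 further genes, to be read against 35.9% of all protein-coding genes with a locus peak in all 6 samples and 28.8% with none. Signalling genes had locus peaks in most samples: 9 of 11 in all 6 samples and 0 of 11 in none. They include ben, a ubiquitin-conjugating enzyme, and Diap2, the ubiquitin ligase that modifies Imd, each with a peak in 6 samples. The lowest were the adaptor gene Fadd with 5 samples and key, the regulatory subunit of the IKK complex, with 4 (2 controls and 2 H1 RNAi samples). Other negative regulators were similar, with 7 of 9 in all 6 samples and 0 of 9 in none. The transcription factor gene cad, which restrains peptide genes in the gut, and dnr1, an inhibitor of Dredd, had a peak in 6 samples, whereas casp had one in 3 and the deubiquitinase gene CYLD in 2. The genes of both lists are over 1000 bp long, from Fadd with 1163 bp to nub with 40511 bp. Of all such genes 40.7% had a locus peak in all 6 samples. A gene-end peak in all 6 samples was found for 7 of 11 signalling genes and 4 of 9 other negative regulators, against 25.8% of genes over 1000 bp.

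Other recognition genes were divided: 3 of 9 had a locus peak in all 6 samples and 3 of 9 in none, near the shares over all genes. PGRP-LA and PGRP-SA, the latter a receptor of the Toll pathway, had one in 6 samples. PGRP-SB1 and PGRP-SB2 had none. The 9 recognition genes are 588 to 4635 bp long and so fall on both sides of 1000 bp, and the share over all genes is not matched to their length. A gene-end peak was found for 1 of 9 in all 6 samples and for 5 of 9 in none, against 22.3% and 43.2% of all protein-coding genes. Of the 10 other peptide genes 1 had a locus peak in all 6 samples and 5 had none in any, near the 16.1% and 53.5% of genes of at most 1000 bp, to which all 10 belong. AttD, an attacin gene outside the AttA cluster, was the exception, with a gene-end peak in each sample. CecA1, a cecropin gene, had a locus peak in 5 samples and a gene-end peak in none, and AttC and CecA2 had no peak in any sample. The number of these 10 loci with a peak was 2, 5 and 3 in controls A, B and C and 3, 2 and 2 in H1 RNAi A, B and C, highest in the library with the highest background.

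**Figure D5:**
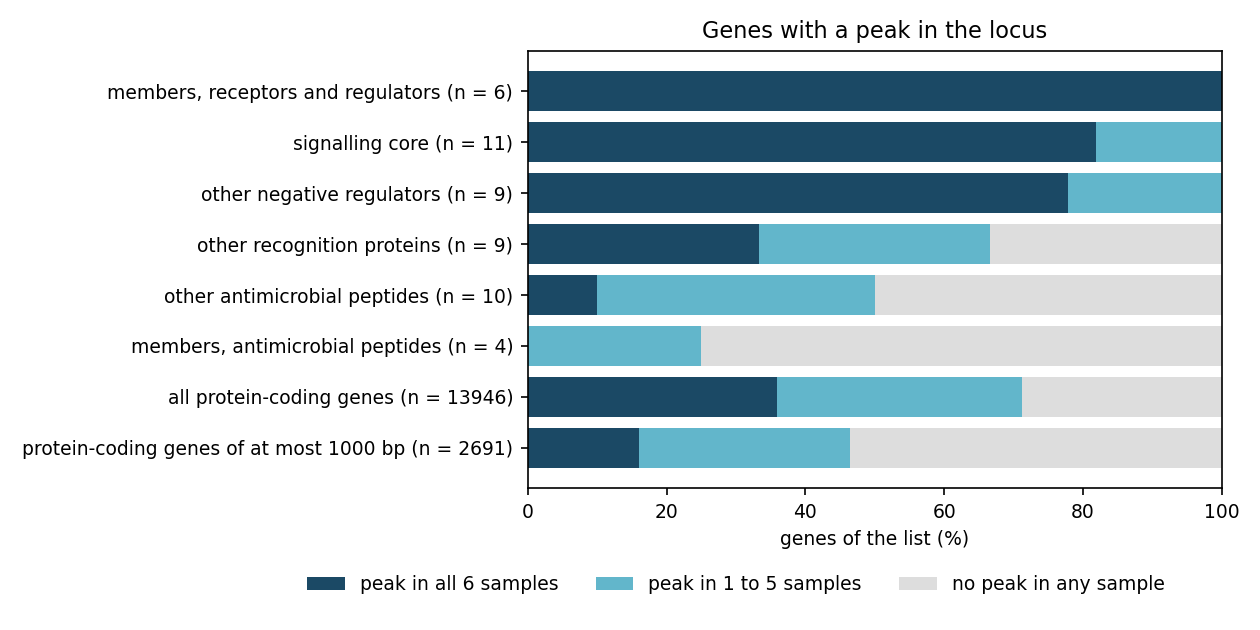
Share of genes (percent) with a peak in the locus in all 6 samples, in 1 to 5 samples and in none, for the member classes, other pathway genes by role, all protein-coding genes and those of at most 1000 bp. The 6 member receptors and regulators stand at 100% in all 6 samples, and 3 of 4 member peptide genes and 5 of 10 other peptide genes have no peak in any.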

How the data were processed

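Peak lists of 6 ATAC-seq samples were used, 3 controls and 3 H1 RNAi samples, grouped by title. The labels give 70 guts per replicate and no shared day or batch. Each exact permutation p is the share of group relabellings of these samples with a difference of means at least as large in size as that observed. It holds for these samples only. The submitters' processing notes name MACS2, Bowtie2, Picard, Trim Galore and dm6; no source used here gives their order, versions or settings, or says whether cuts were shifted for Tn5. Each deposited list gives start, end and summit (other units, coordinates), a score, a fold enrichment (ratio), and p-values and q-values as −log10, all from the authors' peak caller; peaks were called per sample. Peaks were ranked and filtered by these values only inside their own list. Fragment coverage and background were solved from fold and p, taking fold as coverage plus 1 over background plus 1; in each list 99.97% to 100% of the solutions lay no more than 0.02 fragments from a whole number. Read totals were not used here.

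Gene positions are those of the NCBI table for Release 6 (dm6), which gives no strand, exons or sequence, so gene ends are named by coordinate and exons and introns are not told apart. All listed genes matched by symbol and CG number (Delta for Dl). Loci, gene ends (500 bp) and merged regions were counted with Python 3.11.15, pandas 2.3.3 and SciPy 1.17.1. Values per sample were compared over 7 measures by exact two-sided permutation, with Benjamini-Hochberg adjustment over the 7. The counting code was tested on simulated lists. Members, lists and tests were chosen with earlier results of these data known; called length and summit position per region, the split at 1000 bp, the class gap at gene ends, the shares at equal list length and the coverage solution were added after seeing the files. The text names each member and, per list of other pathway genes, the first 2 with a peak in most samples and in fewest, in alphabetical order. The alternatives dropped peaks under a −log10 q of 10 or under 4-fold, equalised list lengths, changed windows, required the summit inside the window, built regions by 50% reciprocal overlap or by summits within 150 bp, blocked on the replicate letter, and omitted samples in turn.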

Additional observations from a re-analysis of the deposited data

How the results depend on the processing

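The share of receptor and regulator loci with a peak, averaged over 6 samples, exceeded that of peptide loci by 91.7 percentage points, and by 29.2 points with 5 kb flanks, which reach the peaks at Rpn6 and Jheh3; in H1 RNAi C the gap was then 0. At gene ends, a comparison added after seeing the data, it was 58.3, 75 and 88.9 points within 250, 500 and 1000 bp. With 5 kb flanks the difference between H1 RNAi and control in that gap was −25 points. In place of 0, the difference in loci with a peak was 1 over all members and 1 over peptide genes with 5 kb flanks, and −0.667 and, for receptors and regulators, −0.333 with gene bodies alone. For receptors and regulators it was 0.333 without peaks under a −log10 q of 10 and without those under 4-fold, where control A lost PGRP-LE. Gene ends within 250 bp gave −0.667. The difference in peak number turned to −1.33 with gene bodies alone; the cause was not tested. Regions called in all 6 samples fell from 8 to 5 under these 2 filters and with reciprocal overlap. Regions called in every sample of one group and none of the other numbered 2 with lists of equal length (near PGRP-LC and PGRP-LE; 1.34% of all regions did so) and 0 to 1 when a sample was left out: 1 without control B (PGRP-LC) and 1 without H1 RNAi A (PGRP-LE). Covered length stayed lower in H1 RNAi under each alternative, by −4.47 to −1.54 kb. The exact permutation p, or sign-flip p with the replicate block, was 0.1 to 0.5. Controls B and C also covered the most over the whole lists.

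Control and H1 RNAi samples with the same letter did not deviate together for every letter (correlations of 0.22, 0.41 and −0.05 for A, B and C). Samples with different letters had correlations of −0.39 to 0.24, so these values do not settle whether the letters mark pairs. The labels name no pairs, and the letters were not taken as pairs in the main comparison. With the replicate block the difference was 2.67 peaks (exact sign-flip p = 0.5, where 0.25 is the smallest possible). Depth limits what a locus without a peak can show.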
